A study of Saccharomyces cerevisiae W303 with 8 samples.

Results

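The genes described here encode the subunits of the RNA polymerases I, II and III of budding yeast. They were taken from a list of 31 subunit genes, matched to the array's probes by systematic open reading frame name, and all 31 were found among the 6228 genes on the array. Of the 31 genes, 7 encode subunits of Pol I only, 10 of Pol III only and 7 of Pol II only. Another 2 encode subunits that Pol I and Pol III share, and 5 encode subunits common to all 3 polymerases. Each gene had 1 probe, and all 31 probes were well above background in both channels on 8 of 8 arrays, so the filter on dim probes removed none of them.

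RNA polymerase I transcribes the large ribosomal RNA precursor, RNA polymerase III transcribes transfer RNAs and a small ribosomal RNA, and RNA polymerase II transcribes messenger RNAs, including those of all the subunits. In growing yeast most transcription goes into ribosomal and transfer RNA, and the genes for ribosome assembly factors are repressed together when the cells are stressed. The enzymes share an architecture: a pair of large subunits that form the active centre, an assembly platform, a stalk, small peripheral subunits and a set of common subunits.

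Yeast of the W303 background was exposed to 0.4 M NaCl, a hyperosmotic stress, in rich medium (YPD). The cdc55 strain is labelled msn2msn4cdc55 and the control strain msn2msn4, so both are labelled as lacking the stress transcription factor genes MSN2 and MSN4, and the cdc55 strain in addition as lacking CDC55, the gene of a regulatory subunit of the phosphatase PP2A. Both carried a plasmid labelled pMsn2pMsn2DNES, whose insert the labels do not describe further. Each strain was harvested at 0 min (untreated), 10, 20 and 30 min, and each of these 8 cultures gave a single array without a repeat. Sample RNA carried Cy5, and Cy3 marked RNA from untreated cells of the control strain as the common reference. A log2 ratio below 0 thus means that the sample held less of an RNA than untreated control cells. The study's title concerns the part of the Cdc55 form of PP2A, by way of Msn2 and Msn4, in responding to hyperosmolarity. RNA came from whole cultures, so fewer cells with an RNA and less of it per cell cannot be told apart.

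Before the results, 3 facts about the arrays bear on them. The deposited scanner files and the deposited value table disagreed on 4 of 8 samples. With the files as attached, 2 of 5742 complete rows of the table equalled the ratios of a probe within 0.01 in all 8 columns; with control 10 min exchanged for cdc55 0 min and control 30 min for cdc55 20 min, 5646 rows did, and the values here follow that exchange. The files of 3 arrays (cdc55 at 0 min, control at 0 and 10 min) lack a settings block, so in the cdc55 strain file type and NaCl cannot be told apart; in the control strain they overlap except at 10 min. On the genotype, the CDC55 probe gave -0.51, -0.21, -0.44 and -0.54 over the time course of the cdc55 strain, against 0.15, 0.17, 0.14 and 0.45 over that of the control strain. With NaCl the strains differed there by -0.65 ± 0.16 (SE), which missed the threshold (limma adjusted p = 0.0883). Although the cdc55 strain is labelled as lacking CDC55, that gene's probe was well above background on 8 of 8 arrays in Cy5 and in Cy3. The MSN4 probe stood well above background on 8 of 8 arrays in Cy5 and in Cy3, although both strains are labelled as lacking the gene, and the sources used here do not say whether it lies within the deletion. The MSN2 probe, although the plasmid's label names Msn2, was well above background on 6 arrays in Cy5 and 2 in Cy3.

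Averaged over the 3 NaCl times, RNAs of Pol I subunits had the lowest class median in both strains, those of Pol III and common subunits lay between, and those of Pol II stayed nearest to the starting level. On single arrays this order did not always hold. At 10 min the median log2 ratio of the shared pair was below that of Pol I in the cdc55 strain (-1.15 against -0.94) and in the control strain (-1.34 against -1.19). The Pol III (-1.03) and common (-1.13) medians also lay below that of Pol I in the cdc55 strain at 10 min. At 30 min in that strain the common median was the lowest (-0.27, against -0.09 for Pol I). In the control strain 11 of 31 genes fell (limma, adjusted p below 0.05 over all probes) and 0 rose, for the mean of 10, 20 and 30 min minus 0 min. Over all 6108 probes 5.89% fell and 7.66% rose, and with median centring in place of loess 10.8% fell and 8.82% rose, with 17 of 31 genes among those that fell. By class, 5 of 7 Pol I genes, 1 of 2 genes shared by Pol I and Pol III, 2 of 10 Pol III genes, 3 of 5 common genes and 0 of 7 Pol II genes fell. The class medians were -1.97 for Pol I, -1.22 for the shared pair, -1.15 for Pol III, -1.06 for the common subunits and -0.17 for Pol II, beside 0.00 over all probes. In the cdc55 strain 0 of 31 genes passed (background 4.19% in either direction, 1.31% lower and 2.88% higher), while 20 had an unadjusted p below 0.05 and the smallest adjusted p was 0.0563. Its class medians had the same order at the ends: -1.49 for Pol I, -0.98 for the shared pair, -1.01 for Pol III, -0.72 for the common subunits and -0.04 for Pol II, beside 0.01 over all probes.

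These p-values rest on 2 residual degrees of freedom, from how the strain difference varied over the 3 NaCl times, and hold no spread between repeated cultures. The 11 calls in the control strain were all lost without the 20 min arrays (adjusted p between 0.131 and 0.284) and with the files as attached (0.779 to 0.861), and the cdc55 count became 13 and 18 when the 10 and the 30 min arrays were left out, where 8.3% and 7.51% of all probes were lower. With no filter on dim probes 8 of the 11 passed, and RPA34, RET1 and RPC19 missed the threshold (adjusted p between 0.0505 and 0.0538). Without the 10 min arrays 23 genes fell in the control strain, where 14.6% of all probes did.

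**Figure D1:**
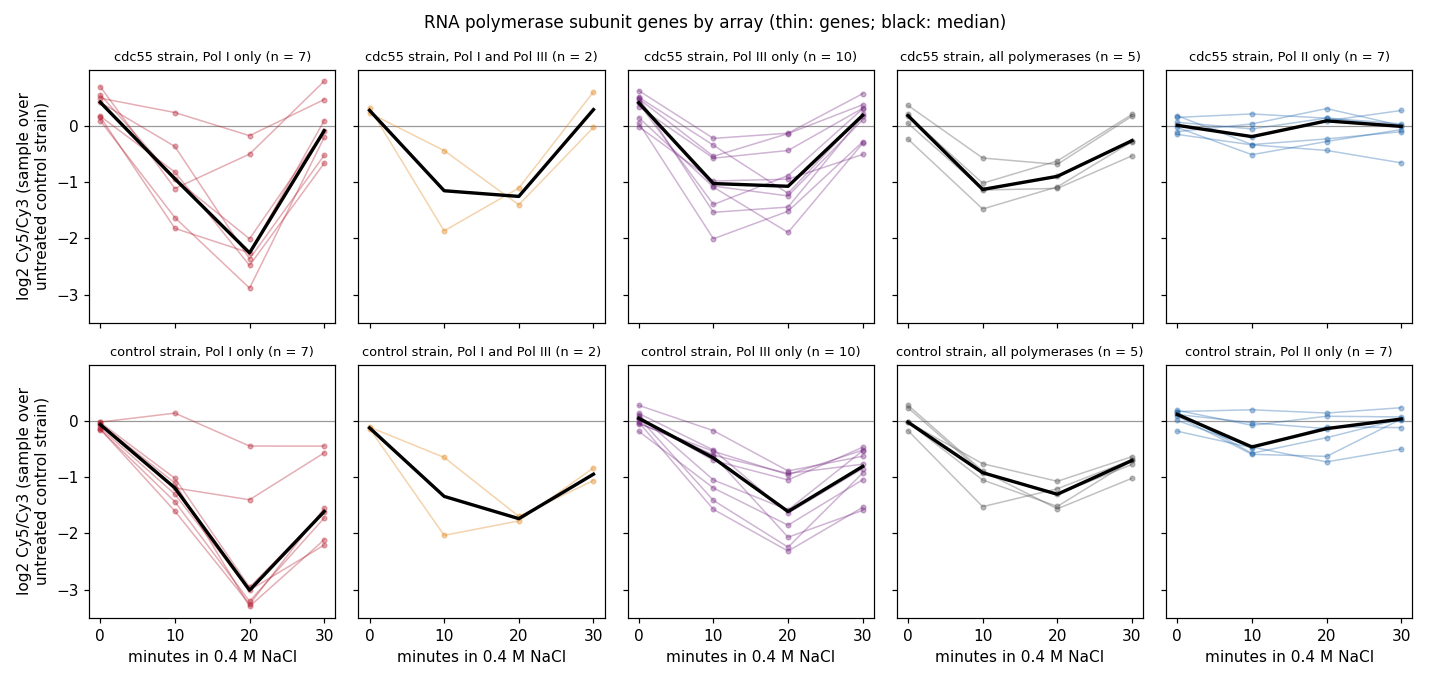
Log2 Cy5/Cy3 of each subunit gene (thin lines) and the class median (black) against minutes in 0.4 M NaCl, for the cdc55 strain (upper row) and the control strain (lower row). Pol I genes reach the lowest values, with medians at 20 min of -2.26 in the cdc55 strain and -3.01 in the control strain, while Pol II genes stay near 0.

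Of the subunits that belong to Pol I alone, RPA190 and RPA135 encode the large pair that forms the active centre. At 0, 10, 20 and 30 min RPA190 read 0.42, -0.37, -2.37 and -0.52 in the cdc55 strain, against -0.13, -1.30, -3.01 and -2.21 in the control strain. RPA135 read 0.17, -0.82, -2.48 and -0.67 in the cdc55 strain, against -0.06, -1.10, -3.29 and -2.11 in the control strain. Both were lowest at 20 min in each strain, and at 30 min the cdc55 value had returned most of the way to its 0 min value while the control value had not. The change of RPA190 over the NaCl times was -1.50 ± 0.30 (SE) in the cdc55 strain (limma adjusted p = 0.0563) and -2.05 ± 0.30 in the control strain (adjusted p = 0.0183). For RPA135 it was -1.49 ± 0.32 in the cdc55 strain (limma adjusted p = 0.0648) and -2.11 ± 0.32 in the control strain (adjusted p = 0.0184). Both genes therefore passed in the control strain, and in the cdc55 strain neither did.

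RPA43 encodes the stalk subunit that contacts the initiation factor Rrn3, and RPA14 its stalk partner. RPA43 read 0.09, -1.63, -2.88 and -0.21 in the cdc55 strain, against -0.16, -1.44, -3.20 and -1.72 in the control strain. RPA14 read 0.49, 0.23, -0.18 and 0.46 in the cdc55 strain, against -0.02, 0.14, -0.45 and -0.45 in the control strain. These partners of one stalk thus differed widely, and RPA14 was the Pol I gene with the smallest changes. RPA43 fell in the control strain (-1.97 ± 0.45, limma adjusted p = 0.0429) and missed the threshold in the cdc55 strain (-1.66 ± 0.45, adjusted p = 0.0954). RPA14 changed by -0.32 ± 0.26 in the cdc55 strain (limma adjusted p = 0.491) and by -0.23 ± 0.26 in the control strain (adjusted p = 0.571). In the S288C gene table RPA43 and RPA190 are divergently transcribed neighbours on chromosome XV.

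RPA49 and RPA34 encode a heterodimer that resembles the Pol II factor TFIIF. RPA49 read 0.55, -0.94, -2.01 and -0.09 in the cdc55 strain, against -0.03, -1.02, -2.95 and -1.61 in the control strain. RPA34 read 0.16, -1.82, -2.26 and 0.09 in the cdc55 strain, against -0.15, -1.60, -3.26 and -1.55 in the control strain. Unlike the stalk partners, these partners had similar courses, lowest at 20 min in both strains. RPA49 fell in the control strain (-1.83 ± 0.38, limma adjusted p = 0.0348), as did RPA34 (-1.99 ± 0.48, adjusted p = 0.0481). In the cdc55 strain neither passed (limma: RPA49 -1.56 ± 0.38, adjusted p = 0.08; RPA34 -1.49 ± 0.48, adjusted p = 0.127).

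The small zinc ribbon subunit gene RPA12, with roles in RNA cleavage and termination, read 0.69, -1.11, -0.50 and 0.79 in the cdc55 strain, against -0.07, -1.19, -1.40 and -0.57 in the control strain. It was the only Pol I gene whose lowest cdc55 value came at 10 min, and at 30 min that strain stood above its own 0 min value. RPA12 did not pass in the cdc55 strain (-0.97 ± 0.35, limma adjusted p = 0.154) or in the control strain (-0.99 ± 0.35, adjusted p = 0.106). Between the control arrays at 0 and 20 min, whose files needed no exchange, RPA135 was 9.43-fold lower at 20 min, RPA34 8.63-fold, RPA43 8.27-fold, RPA49 7.60-fold and RPA190 7.38-fold. These single-array folds are the farthest departures of any of the 31 genes in that pair of arrays.

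The shared subunits RPC40 and RPC19 form the assembly platform of both Pol I and Pol III. RPC40 read 0.23, -0.44, -1.40 and -0.03 in the cdc55 strain, against -0.11, -0.65, -1.70 and -1.06 in the control strain. RPC19 read 0.32, -1.87, -1.11 and 0.60 in the cdc55 strain, against -0.14, -2.03, -1.78 and -0.83 in the control strain. RPC19 was lowest at 10 min and RPC40 at 20 min, in each strain. RPC19 fell in the control strain (-1.41 ± 0.35, limma adjusted p = 0.0498), a value at the edge of the threshold, while RPC40 did not pass (-1.02 ± 0.27, adjusted p = 0.0574). In the cdc55 strain RPC19 changed by -1.11 ± 0.35 (limma adjusted p = 0.121) and RPC40 by -0.85 ± 0.27 (adjusted p = 0.125).

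For Pol III, the large pair is encoded by RPO31 and RET1. RPO31 read 0.62, -0.23, -0.13 and 0.57 in the cdc55 strain, against 0.05, -0.70, -1.05 and -0.47 in the control strain. RET1 read 0.51, -0.35, -1.20 and 0.20 in the cdc55 strain, against 0.13, -0.52, -1.64 and -0.85 in the control strain. RPO31 was above control in the cdc55 strain on every one of the 4 pairs of arrays, and its cdc55 value at 30 min was close to that at 0 min. RET1 fell in the control strain (-1.13 ± 0.27, limma adjusted p = 0.0475) but not by the test in the cdc55 strain (-0.95 ± 0.27, adjusted p = 0.104). RPO31 changed by -0.55 ± 0.22 in the cdc55 strain (limma adjusted p = 0.177) and by -0.79 ± 0.22 in the control strain (adjusted p = 0.0611).

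The Pol III stalk is formed by the products of RPC25 and RPC17. RPC25 read 0.50, -1.54, -1.44 and 0.17 in the cdc55 strain, against 0.06, -1.41, -2.24 and -0.93 in the control strain. RPC17 read 0.48, -0.54, -0.14 and 0.37 in the cdc55 strain, against -0.05, -0.54, -0.96 and -0.52 in the control strain. As with the Pol I stalk, the subunit in the position of Rpa43 had the lower values and its partner the smaller changes. RPC25 fell in the control strain (-1.59 ± 0.34, limma adjusted p = 0.0378), and RPC17 did not pass (-0.62 ± 0.29, adjusted p = 0.184). In the cdc55 strain the changes were -1.44 ± 0.34 for RPC25 (limma adjusted p = 0.0772) and -0.58 ± 0.29 for RPC17 (adjusted p = 0.258).

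RPC82, RPC34 and RPC31 encode a trimer that acts in initiation by Pol III, in which Rpc34 contacts the factor TFIIIB. RPC31 read 0.05, -2.01, -1.52 and -0.29 in the cdc55 strain, against -0.03, -1.57, -2.31 and -1.53 in the control strain. RPC34 read 0.14, -1.09, -1.89 and -0.31 in the cdc55 strain, against 0.04, -0.62, -2.07 and -1.59 in the control strain. RPC82 read 0.42, -1.07, -1.25 and 0.11 in the cdc55 strain, against -0.19, -1.19, -1.85 and -1.05 in the control strain. All 3 were at least 1 log2 unit higher in the cdc55 strain than in the control strain at 30 min. None passed the test of the NaCl response: the control changes were -1.78 ± 0.44 for RPC31 (limma adjusted p = 0.0515), -1.18 ± 0.30 for RPC82 (adjusted p = 0.0518) and -1.46 ± 0.45 for RPC34 (adjusted p = 0.0793).

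The remaining Pol III genes are RPC37 and RPC53, whose products form a TFIIF-like heterodimer, and RPC11, the zinc ribbon subunit for RNA cleavage and termination. RPC53 read 0.40, -1.40, -0.89 and 0.30 in the cdc55 strain, against 0.11, -1.05, -1.58 and -0.53 in the control strain. RPC37 read 0.34, -0.58, -0.44 and 0.31 in the cdc55 strain, against 0.27, -0.17, -0.89 and -0.63 in the control strain. RPC11 read -0.02, -0.98, -0.95 and -0.51 in the cdc55 strain, against -0.04, -0.61, -0.93 and -0.77 in the control strain. RPC11 was the Pol III gene with the smallest gap between strains at 30 min. None of the 3 passed in either strain; the control changes were -1.16 ± 0.35 for RPC53, -0.84 ± 0.36 for RPC37 and -0.73 ± 0.22 for RPC11.

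The 5 common subunits occur in every one of the 3 polymerases. RPB8 read 0.20, -1.14, -1.11 and -0.54 in the cdc55 strain, against 0.28, -0.89, -1.56 and -1.02 in the control strain. RPC10, which encodes the zinc-binding common subunit Rpb12, read 0.04, -1.13, -0.90 and -0.27 in the cdc55 strain, against 0.23, -0.92, -1.30 and -0.77 in the control strain. RPO26, which encodes Rpb6, read -0.24, -1.48, -1.09 and -0.29 in the cdc55 strain, against -0.17, -1.52, -1.21 and -0.69 in the control strain. These 3 genes fell in the control strain, and all 3 of its NaCl values lay below its 0 min value. The control changes were -1.44 ± 0.26 for RPB8 (limma adjusted p = 0.0257), -1.23 ± 0.25 for RPC10 (adjusted p = 0.0328) and -0.97 ± 0.19 for RPO26 (adjusted p = 0.0305). In the cdc55 strain they were -1.13 ± 0.26 for RPB8 (limma adjusted p = 0.0714), -0.81 ± 0.25 for RPC10 (adjusted p = 0.119) and -0.71 ± 0.19 for RPO26 (adjusted p = 0.0917).

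RPB5 and RPB10 complete the common set. RPB5 read 0.18, -1.02, -0.63 and 0.20 in the cdc55 strain, against -0.03, -1.05, -1.52 and -0.70 in the control strain. RPB10 read 0.36, -0.57, -0.69 and 0.17 in the cdc55 strain, against -0.02, -0.76, -1.07 and -0.64 in the control strain. Both courses lay below 0 on all 3 NaCl arrays of the control strain but did not pass (limma: RPB5 -1.06 ± 0.29, adjusted p = 0.0611; RPB10 -0.80 ± 0.22, adjusted p = 0.0633).

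The Pol II subunit genes stayed near 0, and none passed the test in either strain. RPO21, which encodes the largest subunit Rpb1 with its C-terminal repeats, read 0.06, -0.06, 0.14 and 0.03 in the cdc55 strain, against 0.15, -0.58, -0.30 and 0.03 in the control strain. RPB2, the second large subunit, read 0.18, -0.33, -0.23 and -0.11 in the cdc55 strain, against 0.08, -0.59, -0.63 and 0.03 in the control strain. Both control values had returned to about 0 by 30 min. The zinc ribbon gene RPB9 read -0.03, -0.51, -0.28 and -0.07 in the cdc55 strain, against 0.01, -0.46, -0.73 and -0.50 in the control strain. RPB9 had the largest Pol II change in the control strain (-0.57 ± 0.21), which did not pass (limma adjusted p = 0.12).

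The platform genes RPB3 and RPB11 stayed between -0.48 and 0.27 on all 8 arrays. RPB4 and RPB7 encode the Pol II stalk. RPB4 read -0.10, 0.03, 0.30 and 0.00 in the cdc55 strain, against 0.17, 0.20, 0.14 and 0.23 in the control strain. RPB7 read -0.15, -0.34, -0.44 and -0.66 in the cdc55 strain, against 0.19, -0.08, 0.08 and 0.07 in the control strain. RPB7 was lower in the cdc55 strain at all 4 times. Its strain difference with NaCl, -0.50 ± 0.14, did not pass (limma adjusted p = 0.113), and it passed without the 10 min arrays and under a single strain term for all 4 times.

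**Figure D2:**
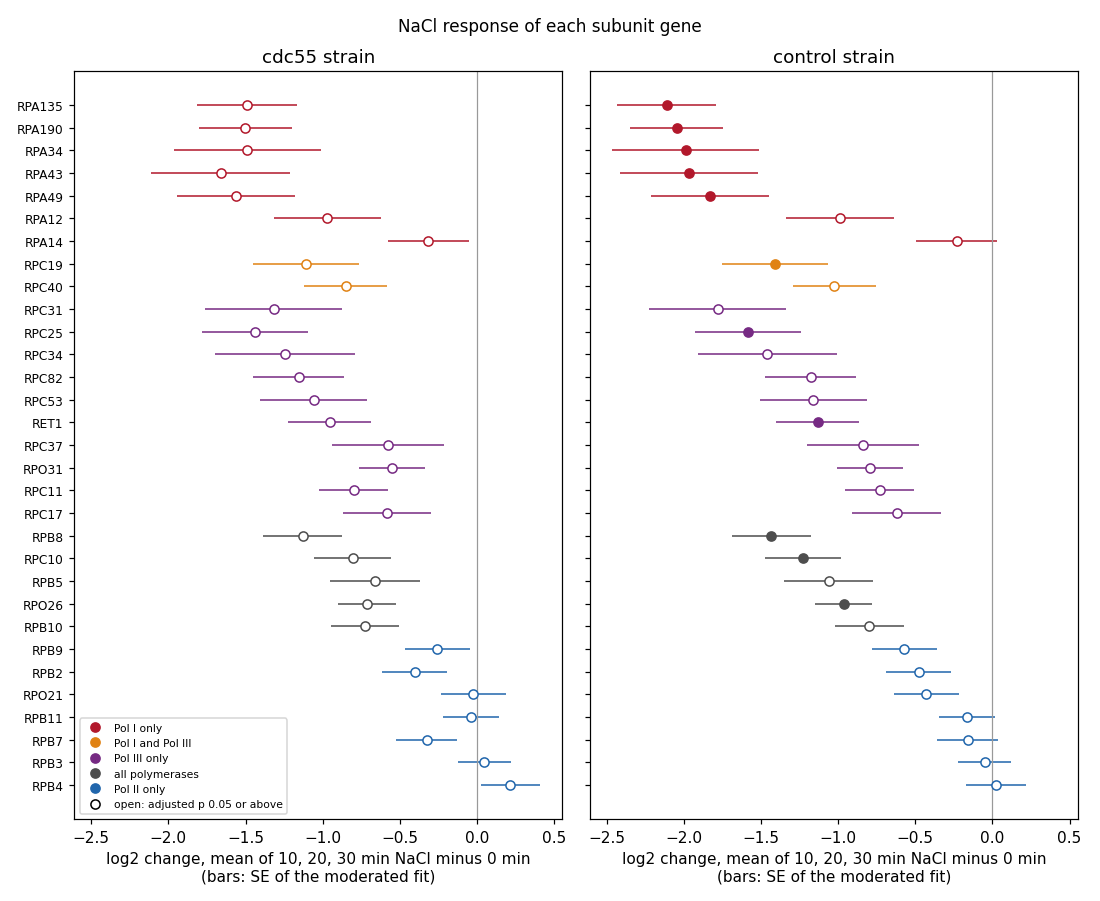
Log2 change of each subunit gene (mean of 10, 20 and 30 min NaCl minus 0 min), with the SE of the moderated fit as bars, in the cdc55 strain (left) and the control strain (right); filled points passed an adjusted p of 0.05. The 11 filled points are all in the control strain and all below 0, and the 7 Pol II genes and RPA14 lie nearest to 0.

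On 5 of the 6 NaCl arrays most genes outside the Pol II set lay below every Pol II gene. On the cdc55 array at 30 min the classes overlapped. The limit there was set by RPB7 at -0.66, and the next lowest Pol II gene was RPB2 at -0.11, so the count on that array depends on RPB7. Of the 24 genes outside the Pol II set, 19 lay below every Pol II gene on the cdc55 array at 10 min, 21 at 20 min and 1 at 30 min, against 20, 23 and 22 on the control arrays at those times. Before NaCl 1 gene did so on each strain's array. RPA14 was the exception on the control array at 20 min, and on the cdc55 array at 10 min it lay above every Pol II gene. The share of all probes below every Pol II gene was not counted. The lowest Pol II value also differed between arrays, from -0.73 (control at 20 min) to -0.15 (cdc55 at 0 min). These counts therefore describe single arrays and are not read as a difference between them. All 3 NaCl values lay below the strain's own 0 min value for 24 of 31 genes in the cdc55 strain (background 28.6%) and for 28 of 31 in the control strain (background 34.8%).

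Subunits that occupy corresponding places in the enzymes can be set side by side. At 5 positions (the largest and second largest subunits, the zinc ribbon, the stalk subunit and its partner) the Pol I gene had a lower NaCl response than its Pol II counterpart at 5 of 5 in both strains. The difference ranged from -0.53 to -1.48 in the cdc55 strain and from -0.26 to -1.80 in the control strain. Pol III genes were lower than their Pol II counterparts at 5 of 5 positions in both strains. That difference ranged from -0.53 to -1.11 in the cdc55 strain and from -0.16 to -1.42 in the control strain. Pol I genes were lower than Pol III genes at 4 of 5, with RPA14 and RPC17 as the exception. Some of these gaps were small: RPA12 minus RPC11 was -0.17 in the cdc55 strain and -0.26 in the control strain. RPC40 was lower than its paralogue RPB3, and RPC19 than its paralogue RPB11, in both strains. These pairs compare changes of different probes on the same arrays, and their differences were not tested.

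**Figure D3:**
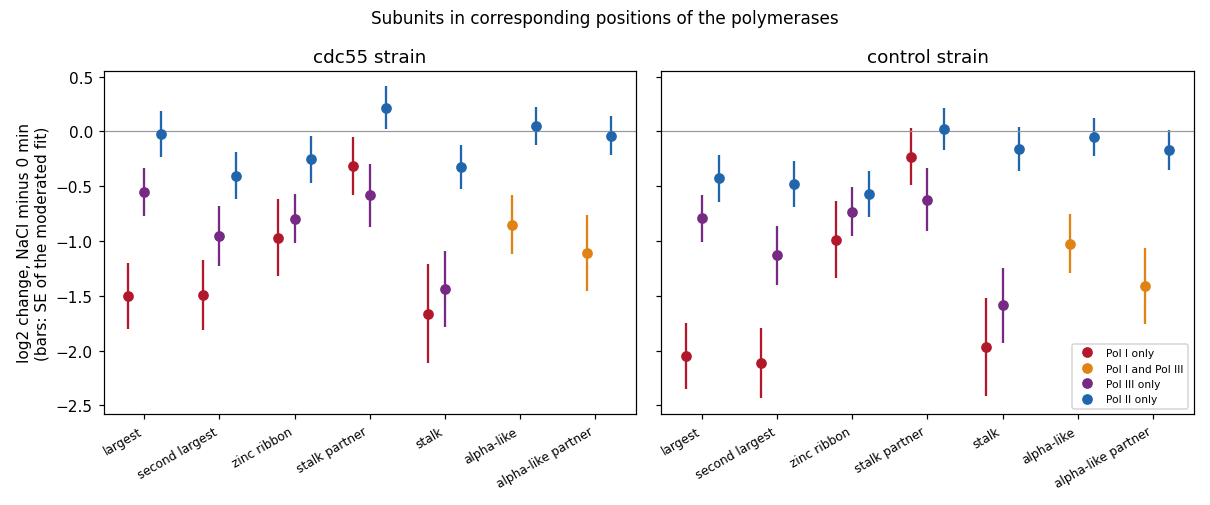
Log2 NaCl response (mean of 10, 20 and 30 min minus 0 min, bars: SE of the moderated fit) of subunits in corresponding positions, in the cdc55 strain (left) and the control strain (right). At every position the Pol II gene lies above its Pol I and Pol III counterparts, and the stalk position holds the lowest Pol III point.

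The time of the lowest value differed between strains and classes. In the cdc55 strain 17, 11 and 3 of the 31 genes were lowest at 10, 20 and 30 min, where 33%, 26.2% and 40.7% of all probes were. In the control strain 5, 25 and 1 genes were lowest at those times, where 35.7%, 33.4% and 30.9% of all probes were. In 3 classes fewer genes were lowest at 20 min in the cdc55 strain than in the control strain: 3 of 10 against 10 of 10 for Pol III, 1 of 5 against 4 of 5 for the common subunits and 0 of 7 against 4 of 7 for Pol II. At 10 min 7 of 10 Pol III genes and 4 of 5 common genes were lowest in the cdc55 strain, against 0 of 10 and 1 of 5 in the control strain. Of the 7 Pol I genes, 6 were lowest at 20 min in each strain. With 1 array per time, this is a description of 6 arrays.

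Return towards the starting level was further along in the cdc55 strain at 30 min. Changes below -1 from 0 min were seen for 15, 16 and 0 genes at 10, 20 and 30 min in the cdc55 strain (background 6.63%, 8.35% and 2.13%), against 14, 21 and 9 genes in the control strain (background 5.01%, 10.4% and 6.42%). The Pol I median relative to 0 min was -1.49, -2.56 and -0.29 at 10, 20 and 30 min in the cdc55 strain, against -1.13, -2.93 and -1.57 in the control strain. For Pol III it was -1.13, -1.42 and -0.31 in the cdc55 strain, against -0.70, -1.68 and -0.88 in the control strain. Relative to each strain's own 0 min array, the cdc55 medians were thus lower at 10 min and higher at 20 and 30 min. For Pol I the order at 10 min depends on the single 0 min arrays, with medians of 0.42 in the cdc55 strain and -0.07 in the control strain. The log2 ratios themselves had a higher Pol I median in the cdc55 strain at 10 min (-0.94 against -1.19). From 20 to 30 min, 14 genes gained more than 1 log2 unit in the cdc55 strain (background 5.58%), and 6 did in the control strain (background 3.49%).

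Set directly against the control strain, the cdc55 strain had more RNA of Pol I and Pol III subunits late in the course, but no gene passed the test. The Pol I median of cdc55 minus control was 0.51, 0.08, 0.81 and 1.52 at 0, 10, 20 and 30 min. The Pol III median was 0.33, -0.24, 0.65 and 1.04, and that of the shared pair 0.40, 0.19, 0.48 and 1.23. Common subunits had medians of -0.06, 0.03, 0.40 and 0.51, and Pol II subunits -0.04, 0.24, 0.27 and -0.02. The gap at 30 min had the same class order as the control strain's NaCl response, with which it shares the control array at 30 min. At that time 14 of 31 genes exceeded 1 log2 unit (6 of 7 Pol I, both shared and 6 of 10 Pol III genes), where 4.86% of all probes did. At 0, 10 and 20 min 0 of 31 genes exceeded it, where 0.524%, 0.442% and 2.14% of all probes did. The cdc55 value was above the control value at all 4 times for 13 of 31 genes (background 19.8%) and at all 3 NaCl times for 15 (background 22.5%), among them RPA190, RPA135, RPA49, RPO31, RPC40 and RPC19.

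In the model, 0 of 31 genes passed for the strain difference over the 3 NaCl times (limma; background 2.21% in either direction, 0.36% higher and 1.85% lower), and 13 had an unadjusted p below 0.05. The smallest adjusted p was 0.0585, for RPO31 (0.81 ± 0.15), followed by 0.0627 for RPA190 (1.09 ± 0.21). Leaving out the 10 min arrays, 18 genes passed as higher and RPB7 as lower, where 7.84% of all probes were higher. At 0 min 0 of 31 genes passed (background 0.0491%) and 0 had an unadjusted p below 0.05, with the Pol I median at 0.51. The difference between the 2 NaCl responses had 0 of 31 genes with an unadjusted p below 0.05, and over all 6108 probes 0 passed and 81 had an unadjusted p below 0.05. The largest values were 0.62 ± 0.45 for RPA135 and 0.55 ± 0.43 for RPA190, each larger than its SE but below 2 SE. The strains' responses are therefore not shown to differ for any subunit gene. Both responses and the strain differences use the same arrays and the same reference RNA.

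**Figure D4:**
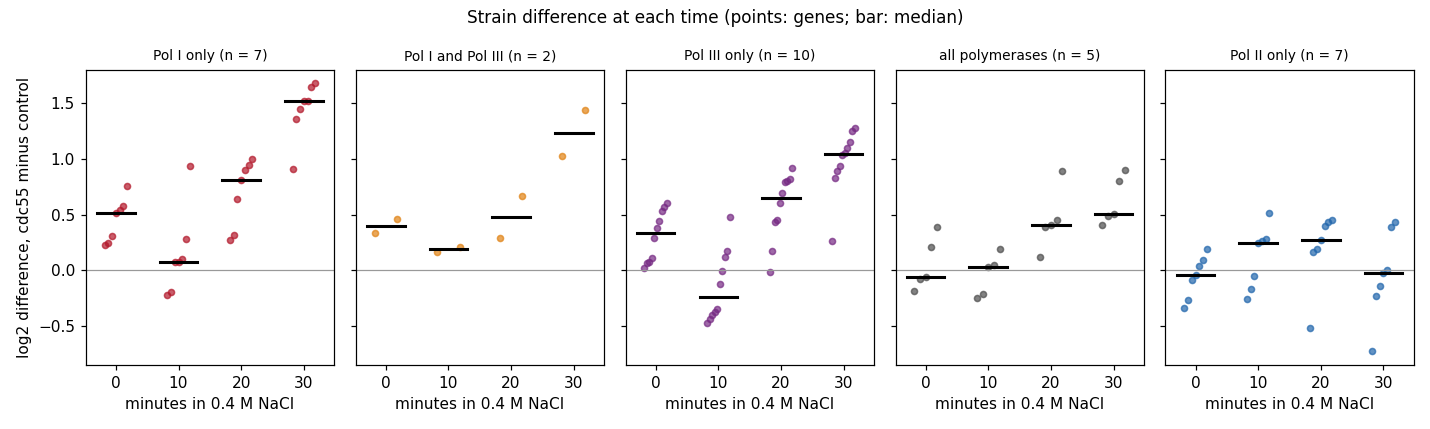
Log2 difference, cdc55 minus control, of each subunit gene at 0, 10, 20 and 30 min in 0.4 M NaCl, with the class median as a bar. The Pol I median moves between 0.08 at 10 min and 1.52 at 30 min, while the Pol II median stays between -0.04 and 0.27.

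The factors that work with the polymerases were looked at in 6 lists of 74 genes. None passed in the cdc55 strain (limma, adjusted p below 0.05), where 4.19% of all probes did. In the control strain 5.89% of all probes fell and 7.66% rose. With lists this small, the counts below are not read as a result about the lists. Of 8 Pol I initiation factor genes 1 fell and 0 rose in the control strain, and their median was -0.31. That gene was RRN11, which encodes a subunit of the Pol I core factor and changed by -1.64 ± 0.39 in the cdc55 strain (limma adjusted p = 0.0768) and by -2.09 ± 0.39 in the control strain (adjusted p = 0.0284). RRN3, whose product joins Pol I to its promoter and contacts Rpa43, read 0.94, -1.14, -0.41 and 1.32 in the cdc55 strain, against -0.19, -1.03, -0.91 and -0.12 in the control strain. Its change did not pass in either strain. Of 9 Pol III initiation factor genes and 17 genes of Pol II general transcription factors 0 passed in the control strain, and the medians were 0.06 and 0.13. The Pol III factors thus did not share the low values of the Pol III subunits.

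Among 7 genes for the assembly and nuclear import of the polymerases 0 passed, with a control median of -0.55. Of all probes 13.6% passed in the control strain and 4.19% in the cdc55 strain. BUD27, which acts in the assembly of the polymerases, changed by -1.49 ± 0.41 in the cdc55 strain (limma adjusted p = 0.0962) and by -1.44 ± 0.41 in the control strain (adjusted p = 0.0649). RTP1, needed for their nuclear import, changed by -1.30 ± 0.42 in the cdc55 strain and by -1.26 ± 0.42 in the control strain.

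Of 8 regulators of ribosome assembly genes and of Pol III, 1 fell and 0 rose in the control strain, and their median was -0.44. Of all probes 5.89% fell and 7.66% rose there. TOD6 encodes a repressor that binds the PAC motif of ribosome assembly genes. It read 1.32, -2.41, -1.97 and 1.22 in the cdc55 strain, against 0.23, -2.32, -3.77 and -1.05 in the control strain. TOD6 fell in the control strain (-2.61 ± 0.61, limma adjusted p = 0.046) and did not pass in the cdc55 strain (-2.38 ± 0.61, adjusted p = 0.0888). Like 6 of the 7 Pol I genes it was lowest at 20 min in the control strain, and at 30 min the cdc55 value was close to that at 0 min. Its paralogue DOT6 changed by -0.78 ± 0.32 in the cdc55 strain and by -0.79 ± 0.32 in the control strain, and did not pass. In the control strain the activator gene SFP1 changed by 0.31, the repressor gene STB3 by 0.25 and MAF1, which encodes the repressor of Pol III, by 0.055, and none of the 3 passed.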

How the data were processed

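Per the labels, total RNA of 8 cultures was labelled with Cy5 and hybridised to 2-colour Agilent arrays against Cy3-labelled RNA of the untreated control strain, with no dye swap. Per the file headers, each deposited scanner file holds median spot and background intensity in both channels, 0 or 1 quality flags, and the software's log10 ratio of Cy5 over Cy3; 5 of 8 name Agilent Feature Extraction 10.5.1.1. The deposited value table holds log2 of Cy5 over Cy3, as its match to the scanner values shows; its column centring is unstated, and 0 of 5646 matched row names equalled the matched probe, so rows were named through values.

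Intensities were background-corrected (normexp, offset 50) and normalised by loess in limma 3.58.1 (R 4.3.3). Non-uniform spots were left out, 0 spots were saturated, and each probe's 2 spots were averaged. The 6256 probes included 12 without a complete record and 136 whose Cy5 signal was well above background on under 3 arrays, leaving 6108. Median Cy5 signals per array lay between 5523 and 13696.5 over backgrounds of 44 to 54; the number of arrays, 1 per strain and time, limits the precision. The model had a term per time and strain terms for 0 min and for NaCl, 6 coefficients in all, with 2 residual and 3.93 prior degrees of freedom. Benjamini-Hochberg adjustment ran over all probes in each of 5 comparisons, with 0.05 as the threshold. The script was tested on simulated data. Python 3.11.15, numpy 2.4.6, pandas 2.3.3, scipy 1.17.1 and matplotlib 3.10.9 were used besides.

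Alternatives were median centring, the software's ratio, the value table, no filter, an intensity trend, a constant strain term, each NaCl time left out, the files as attached, and the mean of a gene's probes. The array assignment was chosen after seeing the data. Members and lists were chosen with earlier results of these data known. All 31 members are named; of each list, members with the smallest p in the control strain, and SFP1, DOT6, TOD6, STB3, MAF1 and RRN3. Promoter and protein sequences were not analysed here.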

Additional observations from a re-analysis of the deposited data

How the results depend on the processing

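In all 12 settings the control strain's NaCl response had Pol I as the lowest and Pol II as the highest of the 5 class medians. For the cdc55 strain this held in 11, the exception being the files as attached. These settings are not all separate checks. An intensity trend alters only the variance, and each gene had 1 probe, which passed the filter. The trend, no filter and the mean of a gene's probes therefore could not change a class median. The software's ratio and the value table gave nearly equal medians. With a constant strain term both strains share 1 NaCl response. Its class order and its 23 calls are thus the same result for each strain. Those calls include the Pol II gene RPB2, which was lower. Counts of genes called moved far more over the settings, as did the share of all probes called. For the cdc55 response, where 0 passed, the count was 9 with median centring, 1 with an intensity trend, 23 with a constant strain term, and 13 and 18 when the 10 and the 30 min arrays were left out; of all probes 4.47%, 1.57%, 19.3%, 8.3% and 7.51% were then lower, against 1.31%. For the control response, where 11 passed, it was 17 with median centring, 23 with a constant strain term, 23, 0 and 20 when the arrays at 10, 20 and 30 min were left out, and 0 under the files as attached; of all probes 10.8%, 19.3%, 14.6%, 0.0164%, 8.71% and 0% were then lower, against 5.89%. For the strain difference with NaCl, where 0 passed, it was 3 with median centring, 1 with the value table, 1 with an intensity trend, 4 with a constant strain term and 19 without the 10 min arrays; of all probes 6.6%, 3.02%, 3.47%, 13.7% and 16.6% were then called, against 2.21%. The 4 genes called with a constant strain term rest on 1 strain difference for all 4 times. That setting therefore gives no separate result for 0 min. The count for the difference of the responses stayed at 0 in each setting run. With the files as attached the cdc55 response median became 0.27 over the 31 genes, 0.25 for Pol I, 0.74 for the shared pair, 0.30 for Pol III and 0.41 for the common subunits. The strain difference then became -0.01 for Pol II with NaCl and, at 0 min, -0.76 over the 31 genes, -1.13 for Pol I, -1.22 for the shared pair and -0.70 for Pol III. Without the 30 min arrays the response difference was -0.068 for Pol I, -0.063 for the shared pair and -0.11 for Pol III, against 0.30, 0.24 and 0.16. The cause of these moves was not tested. Each fit with a time left out had 1 residual degree of freedom, and the fit with the files as attached had 2.

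Over all probes, median centring gave 273 higher and 273 lower calls in the cdc55 response, against 176 and 80 with loess; 539 and 658 in the control response, against 468 and 360; and 146 and 257 in the strain difference with NaCl, against 22 and 113. Each strain and time had 1 array, so there were no replicates to pair. The model's time terms set the strains side by side at matched times.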

Other observations

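The Mediator complex connects activators to Pol II. Of its 25 genes 0 fell and 1 rose in the control strain, where 5.89% of all probes fell and 7.66% rose, so its counts stood near those shares. The median was 0.14, beside 0.00 over all probes. SOH1, which encodes a Mediator subunit, changed by 0.74 ± 0.17 in the cdc55 strain (limma adjusted p = 0.0751) and rose by 1.06 ± 0.17 in the control strain (adjusted p = 0.0209). MED6 had the opposite sign, with -0.43 ± 0.17 in the cdc55 strain and -0.68 ± 0.17 in the control strain (limma adjusted p = 0.0504), and did not pass.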
